A study of Homo sapiens with 11 samples.

Results

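The genes of sterol and fatty acid synthesis were followed in HEK293T cells expressing mutant or wild-type DFNA5. The set held 37 listed genes, chosen by symbol for their place in the pathway, with no cut on a measured value. The choice was made with earlier results of these data known. They comprised 20 enzymes that turn acetyl-CoA into cholesterol, 5 genes of the SREBP control system, 3 sterol transport genes and 9 enzymes of fatty acid synthesis, elongation and desaturation. Of these, 34 had a named probe and 32 had a probe that passed the detection filter (detection p under 0.01 on at least 5 arrays), out of 9653 genes that passed it. FDFT1, SREBF2 and ACSL3 were not analysed here.

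HEK293T is a human embryonic kidney cell line that takes up plasmids readily. The cells were transfected by lipofectamine with mutDFNA5 (6 arrays) or wtDFNA5 (5 arrays), and wtDFNA5 served as a reference. mutDFNA5 is a cDNA from which the exon skipped in families with dominant hearing loss is deleted, and the study examines it as a trigger of cell death. The current symbol of DFNA5 is GSDME, for gasdermin E. Both groups are transient transfections of 1 cell line, and no empty-vector arrays were analysed here. The labels place the harvest at 6 h and the extraction of the array RNA at 12 h after transfection. Per the study, 1 further wtDFNA5 sample failed its quality control. Expression was measured on Illumina HT12 beadchips, and every level below is a quantile-normalized log2 signal. Every change is the mutDFNA5 mean minus the wtDFNA5 mean on that scale. Calls were made at an adjusted p under 0.05 in limma's moderated test, adjusted by Benjamini-Hochberg across every probe that passed the filter. Signals of different probes are not on a common scale per molecule, so levels were not compared between genes. Precision is limited by how many arrays there were.

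Cells make cholesterol from acetyl-CoA. The mevalonate enzymes build an isoprenoid unit, prenyl and squalene enzymes join such units and close them into lanosterol, and a last block of enzymes in the endoplasmic reticulum (ER) trims lanosterol to cholesterol. The supply is held steady by SREBPs, transcription factors made as ER membrane proteins. When ER cholesterol is low, SCAP escorts them to the Golgi, where they are cut free. When it is high, INSIG proteins hold SCAP and SREBP back in the ER. SREBPs switch on the genes of sterol and fatty acid synthesis, so these genes often move together.

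In these cells the pathway did not move as a block. CYP51A1, the demethylase that starts the conversion of lanosterol, was up-regulated by 0.37 ± 0.11 (log2, SE), or 1.29-fold. TM7SF2, a sterol reductase that takes the product of CYP51A1, was down-regulated by 0.30 ± 0.07, a level 1.24-fold higher in wtDFNA5 cells than in mutDFNA5 cells. The other 30 members tested did not pass the test. Hence 1 of 32 members was called higher, where 4.05% of all genes tested were, and 1 of 32 was called lower, where 4.92% of all genes were. At an unadjusted p under 0.05, 6 members were higher (11% of all genes) and 4 were lower (12.8% of all genes). The shares among the members were read beside these backgrounds, and the called shares were close to them. Median scaling of the arrays in place of quantile normalization called 270 genes higher and 54 lower, against 391 and 475 as reported, and called no member in either direction. The median change of the members was -0.01, the same to 2 decimals as the median of -0.01 over all genes tested. Changes ran from -0.30 to 0.37, with 14 above and 18 below 0 (22 above and 10 below 0 under median scaling, where the median over all genes was 0.07).

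**Figure D1:**
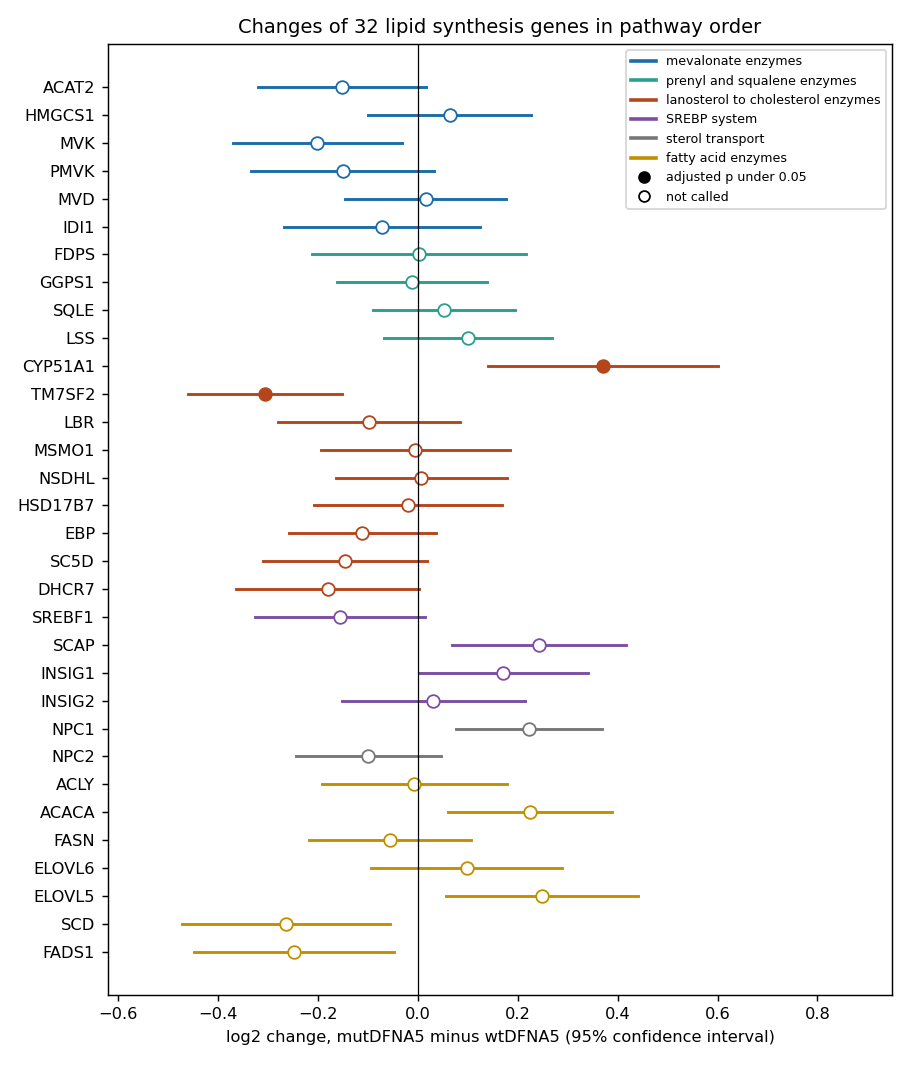
Change of each of the 32 members tested, mutDFNA5 minus wtDFNA5 in log2 units, in pathway order from acetyl-CoA (top) to the fatty acid desaturases (bottom). Circles are changes and lines are 95% confidence intervals, colours are roles and filled circles are calls; CYP51A1 (0.37) and TM7SF2 (-0.30) are the only filled ones and lie on opposite sides of 0.

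All 30 uncalled members had a 95% confidence interval that lay within 0.5 log2 units of 0, as did 8716 of the 8787 uncalled genes of the whole table. The outermost bounds among the members were -0.47 for SCD and 0.44 for ELOVL5. No member reached a change of 0.5 in either direction, which 105 of the 9653 genes did (1.09%). The median SD within a group was 0.13 for the members and 0.14 for all genes. The median signal was 10.67 for the members and 9.16 for all genes, and spread was not compared at like signal. In bulk RNA, fewer transfected cells and less RNA per cell cannot be told apart, and neither was separated in these changes.

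**Figure D2:**
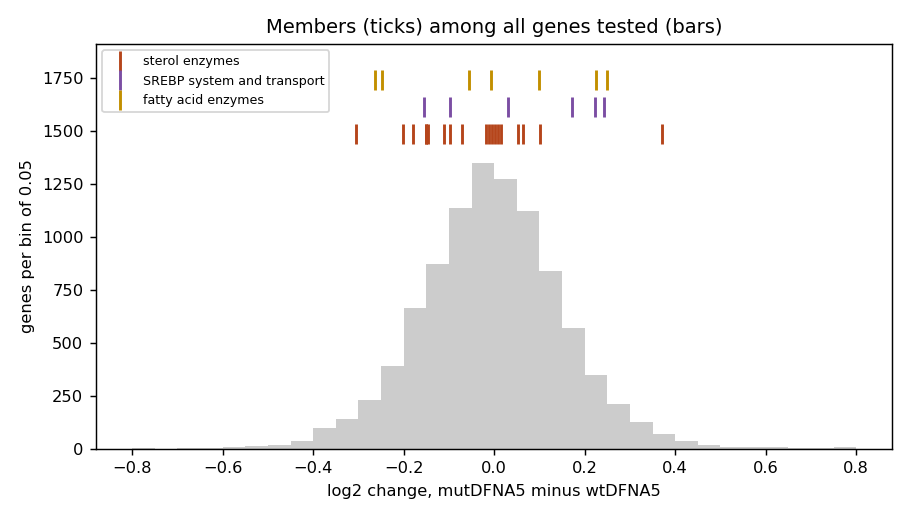
Changes of the members (ticks, in 3 rows by role) above the distribution of changes over all genes tested (grey bars, genes per bin of 0.05 log2 units), mutDFNA5 minus wtDFNA5. The ticks spread over the body of the distribution, between -0.30 and 0.37, and genes beyond 0.8 in either direction are not drawn.

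TM7SF2 was the member that separated the groups. Its signal in mutDFNA5 cells ran from 8.63 through a median of 8.70 to 8.76. In the 5 wtDFNA5 arrays it was 9.09, 8.83, 8.97, 9.14 and 8.99. All 6 mutDFNA5 arrays lay below every wtDFNA5 array, and the spread in mutDFNA5 (SD 0.06) was tighter than in wtDFNA5 (SD 0.12). The means were 8.698 in mutDFNA5 and 9.003 in wtDFNA5 (adjusted p = 0.0132 in limma). TM7SF2 was the only 1 of the 32 members whose groups did not overlap, which 6.62% of all genes tested did. TM7SF2 is also a gene that the study followed up with the values of these arrays in hand. The call was lost under median scaling of the arrays (change -0.21, adjusted p = 0.292).

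CYP51A1 lay higher in mutDFNA5 but with overlap. Its signal ran from 9.05 through a median of 9.27 to 9.40 in mutDFNA5 cells. The wtDFNA5 arrays had 9.07, 8.85, 8.97, 8.37 and 9.21. Of the 6 mutDFNA5 arrays, 5 lay above the whole wtDFNA5 range, and the lowest wtDFNA5 value, 8.37 in replicate 4, stood well under the other 4. The means were 9.27 ± 0.13 in mutDFNA5 and 8.90 ± 0.32 in wtDFNA5 (SD), with an adjusted p of 0.0414 in limma. Without wtDFNA5 replicate 4 the change was 0.24 and the adjusted p was 0.105. The call was also lost without wtDFNA5 replicate 2 or 3 and without mutDFNA5 replicate 1, 3, 4, 5 or 6, where the adjusted p lay between 0.0525 and 0.0859, and it was held without wtDFNA5 replicate 1 or 5 or mutDFNA5 replicate 2. It was lost too with background correction (adjusted p = 0.122), with median scaling (adjusted p = 0.0702) and with no detection filter (adjusted p = 0.0630), always with a positive change.

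**Figure D3:**
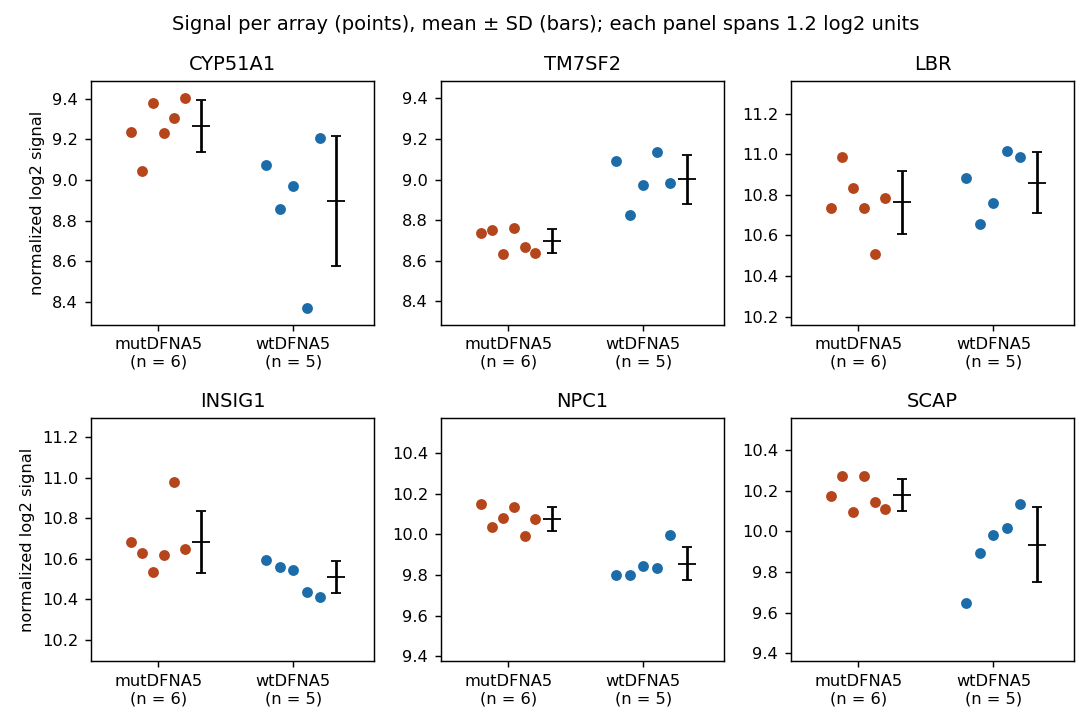
Normalized log2 signal of 6 members on each array (points; 6 mutDFNA5 arrays left, 5 wtDFNA5 arrays right), with mean and SD beside the points; each panel spans 1.2 log2 units. TM7SF2 shows no overlap (highest mutDFNA5 array 8.76, lowest wtDFNA5 array 8.83), CYP51A1 has 1 low wtDFNA5 array at 8.37, and the 2 groups of LBR overlap.

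The promoters of these 2 genes are shown because they encode consecutive steps and were called in opposite directions. The sequences are the 250 bases before each transcription start in RefSeq (GRCh38.p14), 5′ to 3′ on the gene's strand. TM7SF2 is on the plus strand (chr11:65111622-65111871) and CYP51A1 on the minus strand (chr7:92134478-92134727). Capitals mark a CCAAT box, the letters bound by NF-Y, which on the strand opposite to its own reads as ATTGG.
TM7SF2: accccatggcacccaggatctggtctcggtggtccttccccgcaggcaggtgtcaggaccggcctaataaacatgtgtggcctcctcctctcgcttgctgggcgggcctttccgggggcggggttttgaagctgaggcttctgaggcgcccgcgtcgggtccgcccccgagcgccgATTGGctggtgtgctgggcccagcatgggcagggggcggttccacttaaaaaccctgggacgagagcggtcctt
CYP51A1: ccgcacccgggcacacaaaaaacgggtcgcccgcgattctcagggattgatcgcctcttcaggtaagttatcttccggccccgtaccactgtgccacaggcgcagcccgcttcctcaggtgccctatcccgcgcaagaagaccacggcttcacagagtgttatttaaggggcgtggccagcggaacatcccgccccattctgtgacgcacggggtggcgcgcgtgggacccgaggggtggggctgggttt
TM7SF2 held 1 CCAAT box, on the opposite strand, and CYP51A1 held none in its 300-base window. Neither window held the sterol regulatory element core TCACNCCAC or the E-box CACGTG, all searched on both strands. Of the 37 members, 33 matched the RefSeq table, with 46 promoters of 300 bases (250 before and 50 after the start). The CCAAT letters occurred in 28 of these 46 (60.9%), against 34.6% of 35116 promoters of all genes, and in 16 of the 24 sterol enzyme promoters (66.7%). The core TCACNCCAC occurred in 1 of the 46 (2.17%), that of SREBF2, against 1.13% of all promoters. CACGTG occurred in 6 of the 46 (13%), against 7.26% of all promoters. These are matches of letters and were not tested, and a window without a match says nothing of the factor.

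LBR, the lamin B receptor of the inner nuclear membrane, catalyses the same sterol reduction as TM7SF2. Its change was -0.10 ± 0.09 (SE), with means of 10.76 ± 0.16 in mutDFNA5 and 10.86 ± 0.15 in wtDFNA5 (SD), and it was not called (adjusted p = 0.555). A second LBR probe changed by -0.09 (adjusted p = 0.686). The difference TM7SF2 minus LBR was taken within each array, a comparison chosen after the values were seen. It averaged 0.21 less in mutDFNA5 than in wtDFNA5 with either LBR probe. An exact permutation test over 462 splits of the arrays gave p = 0.0281 with the brighter LBR probe (adjusted p = 0.0563). With the second LBR probe the exact permutation test over 462 splits gave p = 0.216. Adjusted for both probes, neither result passed the threshold, so whether TM7SF2 changed more than LBR was left undecided.

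The first block, the mevalonate enzymes, gave no call among 6 tested, with 2 changes above and 4 below 0 (3 and 3 under median scaling) and a median of -0.11. At an unadjusted p under 0.05 in limma, 0 of them were higher (11% of all genes) and 1 was lower (12.8% of all genes). MVK, the kinase that phosphorylates mevalonate, had the smallest p. It ran from 7.89 through a median of 8.02 to 8.21 in mutDFNA5 cells, against 8.27, 8.03, 8.30, 8.23 and 8.34 in wtDFNA5 cells. In 3 of 6 mutDFNA5 arrays MVK lay under the whole wtDFNA5 range, with 1 low wtDFNA5 array (replicate 2) inside the mutDFNA5 range. Its change was -0.20 ± 0.08 (SE, adjusted p = 0.134). PMVK, the next kinase, changed by -0.15 (adjusted p = 0.321; -0.09 without mutDFNA5 replicate 2) and ACAT2, which joins acetyl-CoA units, by -0.15 (adjusted p = 0.269). HMGCS1, the synthase that makes HMG-CoA and a standard SREBP target, was at 10.86 ± 0.14 in mutDFNA5 and 10.80 ± 0.08 in wtDFNA5 (SD, adjusted p = 0.678). MVD, the decarboxylase, changed by 0.02 and IDI1, the isomerase, by -0.07.

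The prenyl and squalene enzymes had a median of 0.03 over 4 tested (0.13 under median scaling) and no call, nor any unadjusted p under 0.05 in limma. LSS, the cyclase that makes lanosterol, had the smallest p of them. Its signal ran from 9.62 through a median of 9.70 to 9.87 in mutDFNA5 cells, against 9.37, 9.75, 9.66, 9.75 and 9.58 in wtDFNA5 cells. The ranges overlapped, and the change was 0.10 ± 0.08 (SE, adjusted p = 0.496), or 0.04 without wtDFNA5 replicate 1, the lowest array. A second LSS probe changed by 0.03. SQLE, the oxygenase that commits squalene to sterols, was at 12.14 ± 0.04 in mutDFNA5 and 12.09 ± 0.06 in wtDFNA5 (SD, adjusted p = 0.693), and its second probe changed by -0.10 (adjusted p = 0.472). FDPS, which makes farnesyl diphosphate, and GGPS1, which makes the longer geranylgeranyl diphosphate, both changed by 0.01 or less in size. Over the 10 enzymes tested from acetyl-CoA to lanosterol, 5 changes were above and 5 below 0 (7 and 3 under median scaling), and their confidence intervals reached no further than -0.37 (MVK) and 0.27 (LSS).

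Of the 9 enzymes tested after lanosterol, CYP51A1 was called higher (a call that many alternatives lost), TM7SF2 was called lower and 7 were not called. Of those 7, 6 had a change below 0 (3 under median scaling), with a median of -0.10 and intervals between -0.36 (DHCR7) and 0.18 (MSMO1). Over all genes tested, 51.5% of changes were below 0. The largest of the 7 was DHCR7, the reductase of the last step, at 10.79 ± 0.15 in mutDFNA5 and 10.97 ± 0.16 in wtDFNA5 (SD, change -0.18, adjusted p = 0.226), and a second DHCR7 probe changed by -0.16 (adjusted p = 0.245). SC5D, a desaturase, changed by -0.15 (adjusted p = 0.276) and EBP, an isomerase, by -0.11 (adjusted p = 0.367). For EBP and for DHCR7, 4 mutDFNA5 arrays lay below the wtDFNA5 range and 0 lay above it. For the enzymes that take off the paired methyl groups of the ring, the changes were -0.005 (MSMO1), 0.01 (NSDHL) and -0.02 (HSD17B7). Under median scaling they were 0.10, 0.11 and 0.09. A second probe of MSMO1 changed by -0.12 (adjusted p = 0.594).

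**Figure D4:**
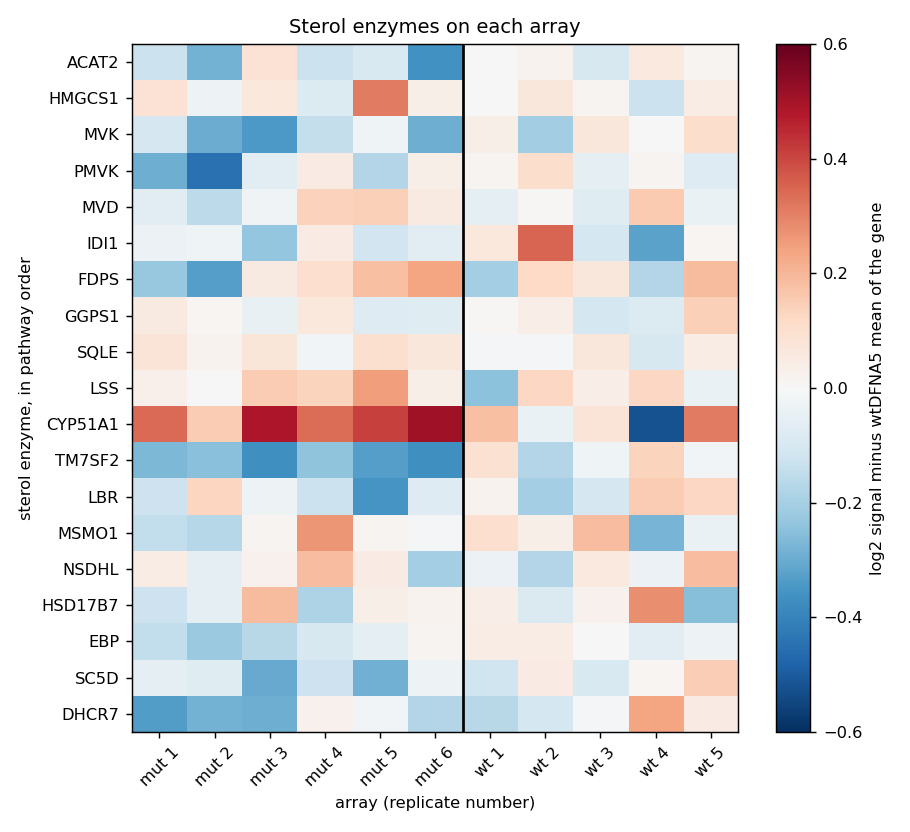
Signal of the 19 sterol enzymes on each array minus the gene's wtDFNA5 mean (log2, red higher and blue lower), in pathway order from top to bottom, with the 6 mutDFNA5 arrays left of the line and the 5 wtDFNA5 arrays right of it. The red row of CYP51A1 lies directly above the blue row of TM7SF2, and the darkest blue cell is CYP51A1 in wtDFNA5 replicate 4, at 8.37.

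Variation between arrays of a group was described as well. Over 11 arrays, the deviations of the 19 sterol enzymes from their group means had a median pairwise correlation of 0.02 over 171 pairs. The 7 fatty acid enzymes had a median of 0.29 over 21 pairs. ACLY, ACACA and FASN, which act in succession, had 0.73 (ACLY and ACACA), 0.72 (ACLY and FASN) and 0.68 (ACACA and FASN). Among SREBP targets the pairs went both ways. SCD and SQLE had 0.79, INSIG1 and HMGCS1 0.76, SQLE and CYP51A1 0.74 and SQLE and HMGCS1 0.72. Against these, ACACA and CYP51A1 had -0.70, FASN and CYP51A1 -0.49, MVD and SQLE -0.40 and LSS and CYP51A1 -0.37. INSIG1 and HMGCS1 were both highest in mutDFNA5 replicate 5 (10.98 and 11.11). SQLE and CYP51A1 were both lowest in wtDFNA5 replicate 4 (11.99 and 8.37). Over all pairs of members the extremes were 0.86 between FADS1 and HSD17B7 and -0.85 between FADS1 and GGPS1. These are descriptions over arrays that share a normalization, and the named pairs were chosen after their values were seen.

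Among the SREBP control genes 4 were tested and none was called in limma, with a median of 0.10. At an unadjusted p under 0.05, 2 were higher, where 11% of all genes tested were. SCAP, the escort protein, had the smallest p. It ran from 10.10 through a median of 10.16 to 10.27 in mutDFNA5 cells, against 9.65, 9.90, 9.98, 10.02 and 10.14 in wtDFNA5 cells. Of the mutDFNA5 arrays, 4 lay above the wtDFNA5 range, and wtDFNA5 replicate 1 was the lowest array. The change was 0.24 ± 0.08 (SE, adjusted p = 0.0741), and it was 0.29 without wtDFNA5 replicate 5 (adjusted p = 0.0449) and 0.17 without wtDFNA5 replicate 1 (adjusted p = 0.200).

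INSIG1, which retains SCAP in the ER and is itself an SREBP target, depended on the probe. Its brighter probe was at 10.68 ± 0.15 in mutDFNA5 and 10.51 ± 0.08 in wtDFNA5 (SD, change 0.17, adjusted p = 0.210). Of the mutDFNA5 arrays, 5 lay above the wtDFNA5 range on this probe. Its dimmer probe ran from 7.99 through a median of 8.15 to 8.23 in mutDFNA5 cells, against 7.75, 8.09, 7.85, 7.58 and 7.80 in wtDFNA5 cells. Of the mutDFNA5 arrays, 4 lay above the wtDFNA5 range on it, and none below. On that probe the change was 0.32 ± 0.09 (SE, adjusted p = 0.0219 in limma), which was past the threshold. The dimmer probe's signals lay not far above the dimmest signals called detected, which were 7.36 to 7.46 per array. With the mean of both probes, INSIG1 changed by 0.25 (adjusted p = 0.0334). INSIG2, its paralog, changed by 0.03 (adjusted p = 0.871). SREBF1, which encodes an SREBP that favours fatty acid genes, changed by -0.15 on its brighter probe (adjusted p = 0.265) and by 0.04 on the other (adjusted p = 0.805).

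NPC1, the lysosomal membrane protein that lets LDL-derived cholesterol leave the lysosome, came closest to the threshold without passing it. Its signal ran from 9.99 through a median of 10.08 to 10.15 in mutDFNA5 cells, against 9.80, 9.80, 9.84, 9.83 and 9.99 in wtDFNA5 cells. Of the mutDFNA5 arrays, 5 lay above the wtDFNA5 range, and the remaining one lay just under wtDFNA5 replicate 5. The change was 0.22 ± 0.07 (SE, adjusted p = 0.0526). NPC1 passed the threshold when only probes detected on all arrays were kept (adjusted p = 0.0419), when probes of a gene were averaged (adjusted p = 0.0286) and without wtDFNA5 replicate 5 (0.26, adjusted p = 0.0424). It moved away from it with no detection filter (adjusted p = 0.138), with median scaling (adjusted p = 0.0957) and without wtDFNA5 replicate 2 (adjusted p = 0.111) or mutDFNA5 replicate 1 (adjusted p = 0.102). With the replicate number as a block in limma, the adjusted p of NPC1 was 0.132. NPC2, the soluble partner that hands cholesterol to NPC1, changed by -0.10, with 5 of 6 mutDFNA5 arrays under the wtDFNA5 range (adjusted p = 0.427). STARD4, a soluble sterol carrier, was detected on 0 arrays, at 7.03 in mutDFNA5 and 6.96 in wtDFNA5, and was not tested under the detection filter.

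**Figure D5:**
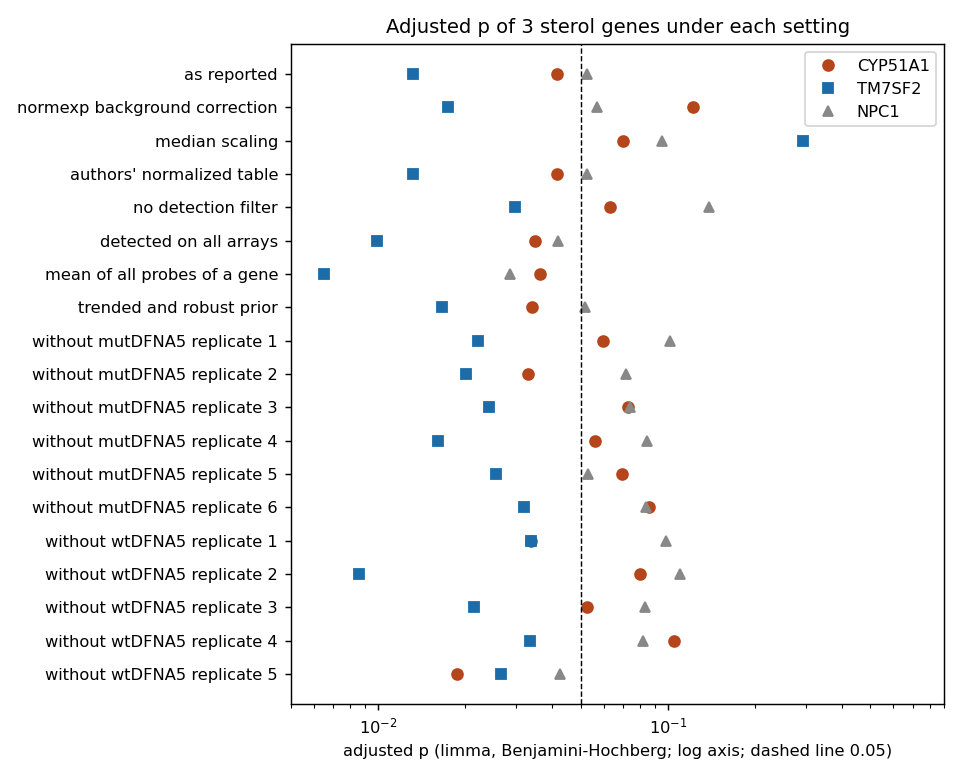
Adjusted p in limma of CYP51A1, TM7SF2 and NPC1 (log axis, dashed line at 0.05) as reported, under other processing and with each array left out in turn. The fit with the replicate number as a block is not drawn (TM7SF2 0.0484, CYP51A1 0.0580, NPC1 0.132). TM7SF2 lies left of the line in every setting drawn except median scaling (0.292), CYP51A1 lies on both sides of it (0.0414 as reported, 0.105 without wtDFNA5 replicate 4), and NPC1 is at 0.0526 as reported.

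Of the fatty acid enzymes, 7 were tested and none was called, with 3 changes above and 4 below 0 (5 and 2 under median scaling) and a median of -0.01. At an unadjusted p under 0.05 in limma, 2 were higher and 2 lower, where 11% of all genes tested were higher and 12.8% lower. ACACA, the carboxylase that makes malonyl-CoA, had the smallest p of this group. It ran from 9.58 through a median of 9.70 to 9.82 in mutDFNA5 cells, against 9.39, 9.51, 9.61, 9.62 and 9.26 in wtDFNA5 cells. Only 1 mutDFNA5 array lay within the wtDFNA5 range, and the change was 0.22 ± 0.08 (SE, adjusted p = 0.0826). A second ACACA probe changed by 0.15 (adjusted p = 0.329). ELOVL5, an elongase of polyunsaturated fatty acids, was at 11.19 ± 0.11 in mutDFNA5 and 10.94 ± 0.22 in wtDFNA5 (SD, change 0.25, adjusted p = 0.100). Without wtDFNA5 replicate 3, its lowest array at 10.60, the change was 0.16 (adjusted p = 0.261).

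Both fatty acid desaturases tested among the members had changes below 0. SCD5, a further fatty acid desaturase outside the member list, changed by 0.14 (adjusted p = 0.294 in limma). SCD, which makes oleate from stearate, was at 12.78 ± 0.15 in mutDFNA5 and 13.04 ± 0.24 in wtDFNA5 (SD, change -0.26, adjusted p = 0.109). Without wtDFNA5 replicate 4 its change was -0.33 and passed the threshold (adjusted p = 0.0479), and without wtDFNA5 replicate 3, the highest array at 13.43, it was -0.17 (adjusted p = 0.284). FADS1, a desaturase of polyunsaturated fatty acids, was at 9.37 ± 0.21 in mutDFNA5 and 9.62 ± 0.15 in wtDFNA5 (SD, change -0.25, adjusted p = 0.117). FADS2, its partner in that pathway, was detected on 2 mutDFNA5 arrays and 0 wtDFNA5 arrays, at 7.33 and 7.15, and did not pass the detection filter. FASN, the synthase that makes palmitate, was at 12.73 ± 0.08 in mutDFNA5 and 12.78 ± 0.14 in wtDFNA5 (SD, change -0.06, adjusted p = 0.724). ACLY, which supplies cytosolic acetyl-CoA to both pathways, changed by -0.01 (adjusted p = 0.974), and its second probe by 0.14 (adjusted p = 0.311). ELOVL6, an elongase of saturated fatty acids, changed by 0.10 (adjusted p = 0.570).

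Around these members, 3 lists of neighbouring pathway genes were read in the same fit. Of 9 tested genes of other isoprenoid and sterol steps, 0 were called higher and 1 lower, with a median of 0.05. The called gene was DHDDS, a subunit of the enzyme that builds dolichol, at 8.97 in mutDFNA5 and 9.28 in wtDFNA5 (adjusted p = 0.0496). Of 13 tested genes of sterol sensing, uptake and efflux, none was called in limma, 0 had an unadjusted p under 0.05 and the median was 0.01. Of 20 tested genes of fatty acid and glycerolipid metabolism, 1 was called higher and 3 lower, with a median of 0.01, where 4.05% of all genes were called higher and 4.92% lower. ACSL4, a synthetase that activates arachidonate, was higher at 10.02 in mutDFNA5 and 9.54 in wtDFNA5 (change 0.48 ± 0.11, SE, adjusted p = 0.00862). SLC25A1, the mitochondrial citrate carrier that feeds ACLY, was lower at 11.09 in mutDFNA5 and 11.46 in wtDFNA5 (adjusted p = 0.0203). MECR, a reductase of mitochondrial fatty acid synthesis, changed by -0.29 (adjusted p = 0.0465), and LPIN1, a phosphatidate phosphatase of glycerolipid synthesis, by -0.28 (adjusted p = 0.0324). Under median scaling the call of ACSL4 was kept (adjusted p = 0.0250) and those of DHDDS, SLC25A1, MECR and LPIN1 were lost, with adjusted p between 0.203 and 0.433. Over the 19 alternatives the call was lost in 2 for ACSL4, 5 for SLC25A1, 9 for LPIN1, 11 for MECR and 12 for DHDDS, and no direction turned.

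Over the whole series, 14029 to 15443 of the 42000 probes were detected per array, and the median signal of an array before normalization lay between 6.90 and 7.33, lowest in wtDFNA5 replicate 4. The probe of DFNA5 itself was at 8.05 ± 0.20 in mutDFNA5 and 8.02 ± 0.22 in wtDFNA5 (SD, adjusted p = 0.908). Its position on the transfected cDNA was not given in the sources used here, so it does not check the labels. Of 8 markers of HEK293 cells, VIM, KRT18, CDH2, NEFL, NEFM and LIN28B were detected on all 11 arrays and KRT8 and PAX2 on none. NEFM (0.75, adjusted p = 8.9e-07) and LIN28B (0.29, adjusted p = 0.0210, and 0.0502 under median scaling) were called higher in mutDFNA5, and whether they bear on the lipid genes was not tested. Of 9 markers of other cell types with a probe, 6 were detected on 0 arrays (ALB, APOA1, PTPRC, COL1A2, HBA1 and NPHS1). CD68 was detected on 11 arrays, PECAM1 on 9 and COL1A1 on 2. Neither of the 2 that could be tested, CD68 and PECAM1, was called.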

How the data were processed

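RNA of HEK293T cells transfected with mutDFNA5 (6 arrays) or wtDFNA5 (5 arrays) was amplified and hybridised to HT12 beadchips, 1 array per sample. Group and replicate number were read from the labels, whose titles call the mutant samples KO although the characteristics name mutant DFNA5. The study describes the replicates as biologically independent.

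The authors deposited log2 signals per probe, not normalized between arrays, and detection p-values were deposited beside them. The authors also deposited a quantile-normalized log2 table, made with beadarray and limma (3.24.4 in the submitters' processing notes), with no background correction stated. Quantile normalization removes a shift common to most transcripts, and without background subtraction changes of dim probes are understated.

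Quantile normalization was repeated here in R 4.3.3 (limma 3.58.1), and the result lay within 0.0191 of the authors' normalized values. The detection filter kept 14542 of 42000 probes, those with a detection p below 0.01 on 5 or more of the 11 arrays. Gene names came from a platform annotation of a later HT12 version than the methods name: 27916 probes had 1 symbol, 7 had several and 14077 were not listed. The brightest probe stood for its gene. mutDFNA5 minus wtDFNA5 was tested with limma without covariates (two-sided, Benjamini-Hochberg across the 14542 probes), and the script was tested on simulated data. Lists have counts and medians only.

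All members are named. For TM7SF2, CYP51A1 and, in a role group with no call, the member with the smallest p, each wtDFNA5 value is given. Their mutDFNA5 values are given as lowest, median and highest. In the neighbouring lists the called genes are named. Members and lists were chosen with earlier results of these data known. The alternatives were normexp background correction, median scaling, the authors' table, 2 other detection filters, the mean of a gene's probes, a trended and robust prior, the replicate number as a block, and leaving out each array.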

Additional observations from a re-analysis of the deposited data

Results flagged for a closer look

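In 64 groups of arrays (each of the 32 members in mutDFNA5 and in wtDFNA5), 2 had 1 array far from the others by Dixon's test, where chance gives about 1 in 20. INSIG1 was at 10.98 in mutDFNA5 replicate 5, against 10.53 to 10.68 in the other 5 mutDFNA5 arrays. Without that array the change of INSIG1 was 0.11 (adjusted p = 0.405). NPC1 was at 9.99 in wtDFNA5 replicate 5, against 9.80 to 9.84 in the other 4 wtDFNA5 arrays, and without it the change of NPC1 was 0.26 (adjusted p = 0.0424).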

How the results depend on the processing

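Recomputing the 32 members under each alternative gave 608 values, of which 546 kept both direction and side of the threshold. A further 43, in 13 members, changed sign without being called in either fit, 13 calls were lost, 6 were gained and 0 turned from one called direction to the other. Members called higher numbered 1 as reported, 0 with normexp, median scaling, no detection filter or the replicate block, 2 with probes detected on all arrays and 3 with the mean of a gene's probes. They numbered 0 to 3 with each array left out, 3 being reached without wtDFNA5 replicate 5 (CYP51A1, NPC1 and SCAP). Members called lower numbered 1 as reported, 0 with median scaling and 1 to 2 with each array left out, 2 being reached without wtDFNA5 replicate 4 (TM7SF2 and SCD). Over all genes tested, 391 were called higher and 475 lower as reported, 271 and 330 with normexp, 270 and 54 with median scaling, 279 and 299 with no detection filter and 259 and 298 with the replicate block. Under median scaling the median change of the members was 0.0898, against -0.01 as reported, and that of all genes was 0.07. The cause was not tested. Deviations of same-numbered arrays from their group means had correlations of -0.02, -0.05, -0.06, 0.12 and 0.01 in replicates 1 to 5. The mutDFNA5 array closest to wtDFNA5 replicate 4 was replicate 4. For wtDFNA5 replicates 1, 2, 3 and 5 it had another number. These values cannot show whether same-numbered arrays shared a preparation. With the replicate block, CYP51A1 changed by 0.34 (adjusted p = 0.0580) and TM7SF2 by -0.29 (adjusted p = 0.0484). A block for the beadchip was not run, since the files do not name it. STARD4 and FADS2 entered only without the detection filter (0.06, adjusted p = 0.859, and 0.19, adjusted p = 0.282). For dim probes, the signal over background limits what can be called.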
